A study of Mus musculus with 6 samples.

Results

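The MYC, MAX and MXD network is a family of transcription factors that bind DNA in pairs, and its 10 genes were read from a bulk RNA-seq table of the mouse prostate by their symbols. The members were MYC, MYCN, MYCL, MAX, MXD1, MXD3, MXD4, MXI1, MNT and MLX, 10 of the 24908 genes listed, and all of them were found. They are written below as the mouse genes Myc, Mycn, Mycl, Max, Mxd1, Mxd3, Mxd4, Mxi1, Mnt and Mlx, and MYC in capitals denotes the genotype. Of these 10 genes, 8 reached a mean of 1 FPKM over the libraries, as did 12361 genes of the table. Mycn and Mxd3 stayed below this minimum, so their values are given but enter no count of members that differ, except where the minimum was dropped as an alternative. Both are among the members whose promoters were searched.

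The 3 lobes, named AP (anterior), DLP (dorsolateral) and VP (ventral), were taken from the prostates of 2 male FVB littermates, both 12 weeks old and both fed a purified diet after weaning. One was wild type (WT) and the other was a Hi-MYC mouse (MYC), heterozygous for a human c-MYC transgene that the androgen-dependent ARR2Pb promoter, derived from the probasin gene, drives in the prostatic epithelium. RNA of a single-cell suspension was sequenced once per lobe and mouse, as 6 libraries, so genotype and mouse cannot be told apart and the genotypes could not be tested. In such bulk samples, fewer cells of a type and less RNA per cell cannot be told apart either. The study asked how MYC alters the transcriptional program of each lobe.

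Max is the shared partner of the network. Myc, Mycn and Mycl proteins pair with Max and activate genes of growth, ribosome assembly and division, many of them through the sequence CACGTG, the canonical E-box. The Mxd proteins and Mnt compete for Max and for the same sites, and recruit the Sin3 corepressor with its histone deacetylases, so they are known as Myc antagonists. Mlx pairs with Mxd1, Mxd4 and Mnt, and with the sugar-sensing factors Mlxip and Mlxipl, which switch on Txnip and Arrdc4. Mga is a further partner of Max.

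The E-box was looked for in the promoters of the members themselves, because the same sequence serves both arms of the network. RefSeq promoter windows of the assembly GRCm38.p6, from 250 bases before to 50 bases after a start site, were at hand for 9 members, all except Myc. The letters CACGTG, which read the same on both strands, occurred in 4 of them (44.4%), those of Mxd4, Mnt, Mlx and Max. They occurred in 12.0% of the 9561 genes of at least 1 FPKM that had a window, and in 7.15% of the 32851 windows in all. The sequences below run 5′ to 3′ on the strand of the gene, with the E-box in capitals. The stretch of Mxd4 is the whole 250 bases before its start site (chr5:34187711-34187960, minus strand), and the E-box begins 219 bases before that site. For Mnt (chr11:74830789-74830818, plus strand), Mlx (chr11:101087238-101087267, plus strand) and Max (chr12:76962234-76962263, minus strand), whose windows reach into the span of the gene, 30 bases around the E-box are shown, and it begins 123, 40 and 3 bases before the start site.
Mxd4: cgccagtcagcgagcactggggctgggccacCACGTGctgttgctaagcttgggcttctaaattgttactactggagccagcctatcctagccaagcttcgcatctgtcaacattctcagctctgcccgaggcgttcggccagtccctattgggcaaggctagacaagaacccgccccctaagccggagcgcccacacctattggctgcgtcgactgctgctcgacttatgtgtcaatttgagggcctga
Mnt: ccccacccaagcCACGTGtgcgcgcgcggt
Mlx: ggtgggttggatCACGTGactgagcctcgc
Max: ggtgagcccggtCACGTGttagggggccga
The windows of Mycn, Mycl, Mxd1, Mxd3 and Mxi1 did not hold these letters. A match describes the letters and not a bound site. Across the 9561 genes of at least 1 FPKM with a window, those with CACGTG had median log2 ratios of MYC to WT of 0.09, 0.04 and 0.09 in AP, DLP and VP, beside 0.13, 0.04 and 0.04 for those without.

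Values are FPKM as deposited, a level per length of transcript, so levels can be set side by side between genes. The log2 ratio is log2 of (FPKM + 1) in one library over (FPKM + 1) in another, which understates the change of low genes, and a gene was counted when it differed at least 2-fold on this scale. Steps in the low values gave depths of 25.5 to 50.2 M reads, with WT AP the shallowest, and the reads per member estimated from them gave 95% intervals for each ratio of FPKM, which cover counting error only. The median log2 ratio of all genes tested was 0.13 (AP), 0.03 (DLP) and 0.04 (VP), and other scalings moved it to between -0.0015 and 0.29 in AP, between -0.17 and -0.01 in DLP and between -0.18 and 0.23 in VP. Ratios of members close to these medians carry no firm direction. The luminal keratins Krt8 and Krt18 were at 387.9 to 1611 FPKM in all 6 libraries, and basal, stromal, endothelial and hematopoietic markers were detected beside them. Seminal vesicle markers summed to 521.9 FPKM in MYC AP and to 0.0966 FPKM in WT AP, with 5 of 6 listed at 0 there. In DLP they summed to 9.17 FPKM in MYC and 0.105 FPKM in WT, and in VP all 6 were listed at 0 in both. The MYC AP library, and to a lesser level MYC DLP, thus held marker transcripts of a neighbouring gland, and their part in the values of these libraries was not tested.

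The Myc row was the highest of the network in every library. It stood at 230.0 FPKM in WT AP, 200.6 FPKM in WT DLP and 226.4 FPKM in WT VP, and at 230.9 FPKM in MYC AP, 586.1 FPKM in MYC DLP and 1696 FPKM in MYC VP. The 3 WT lobes and MYC AP lay close together, and only MYC DLP and MYC VP stood above them. MYC against WT was 1.004-fold in AP (95% counting interval 0.979 to 1.03), 2.92-fold in DLP (2.87 to 2.98) and 7.49-fold in VP (7.37 to 7.61). In order of level, MYC VP and MYC DLP came first and differed beyond counting error from each other and from the rest, whereas the next neighbours, MYC AP and WT AP, and WT AP and WT VP (0.984-fold, 0.960 to 1.01), did not. WT DLP was the lowest as deposited, at 0.872 times WT AP (0.850 to 0.895), whereas as a ratio to Krt8 and Krt18 WT VP was below it (log2 ratio -1.40). Myc lies on chromosome 15 at 61985341 to 61990361 in GRCm38.p6. The human transgene has no row of its own, so mouse and human transcripts within the Myc row cannot be told apart.

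Even in the WT lobes the Myc row lay above 98.8% to 99.0% of all genes listed. Myc is itself an immediate early gene, one of those that cells switch on within minutes of a stimulus such as dissociation. A list of 18 other immediate early and heat shock genes, among them Fos, Jun and Egr1, summed to 16484 FPKM in WT AP, 13189 FPKM in WT DLP and 15246 FPKM in WT VP, and to 18891, 13595 and 10926 FPKM in the MYC lobes in the same order. The list was therefore high in all 6 libraries and lowest in MYC VP, where the Myc row was highest. Its median log2 ratio was 0.11 (AP), 0.06 (DLP) and -0.51 (VP), where 16 of the 18 genes lay below 0, as did 46.4% of all genes, and the values of AP and DLP changed sign under some alternatives. The highest and lowest log2 ratios in VP were those of Klf6, a zinc finger factor (364.6 FPKM in WT and 481.5 FPKM in MYC, log2 ratio 0.40), and Socs3, an inhibitor of cytokine signaling (120.3 and 46.2 FPKM, log2 ratio -1.36). Its part in the level of the Myc row was not tested.

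The other 2 Myc family genes were low, and neither followed the Myc row. Mycl, a paralog with a narrower range of tissues, was at 6.94 FPKM in WT AP, 8.58 FPKM in WT DLP and 4.39 FPKM in WT VP, and at 6.60, 8.47 and 3.84 FPKM in the MYC lobes. It was lowest in VP and highest in DLP in both mice, except that as a ratio to Krt8 and Krt18 MYC DLP was not above MYC AP (log2 ratio -0.08). WT VP had 0.511 times the Mycl level of WT DLP (0.446 to 0.586) and MYC VP had 0.453 times that of MYC DLP (0.385 to 0.531). Between genotypes Mycl differed by log2 ratios of -0.06 (AP), -0.02 (DLP) and -0.15 (VP), all within counting error, and the AP and VP values changed sign under 1 of 5 alternative scalings and pseudocounts each. Mycn, best known from the nervous system, was at 0.524, 0.213 and 0.0673 FPKM in WT AP, DLP and VP and at 0.450, 0.385 and 0.0305 FPKM in MYC. These values correspond to between 2 and 40 reads, and the intervals of MYC against WT spanned 1 in each lobe. The lobes differed more, and WT VP had 0.129 times the Mycn level of WT AP (0.0448 to 0.340). The Myc row held 95.8% of the summed Myc family FPKM in WT DLP, the lowest share, and 99.8% in MYC VP, the highest.

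Max, the shared partner, varied little over the libraries. It was at 44.4 FPKM in WT AP, 42.2 FPKM in WT DLP and 45.9 FPKM in WT VP, and at 46.8 FPKM in MYC AP, 49.9 FPKM in MYC DLP and 49.2 FPKM in MYC VP. With the values as deposited, every MYC library was slightly above its WT counterpart, a direction that changed in AP and VP under some alternative scalings. The difference was 1.05-fold in AP (0.991 to 1.12), 1.18-fold in DLP (1.12 to 1.25) and 1.07-fold in VP (1.02 to 1.13), where the alternatives gave log2 ratios between -0.17 and 0.35. The Myc row was 5.18, 4.76 and 4.94 times Max in WT AP, DLP and VP. In MYC it was 4.93 times Max in AP, 11.7 times in DLP and 34.5 times in VP. The ratio of these 2 rows in a library does not depend on how libraries are scaled.

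**Figure D1:**
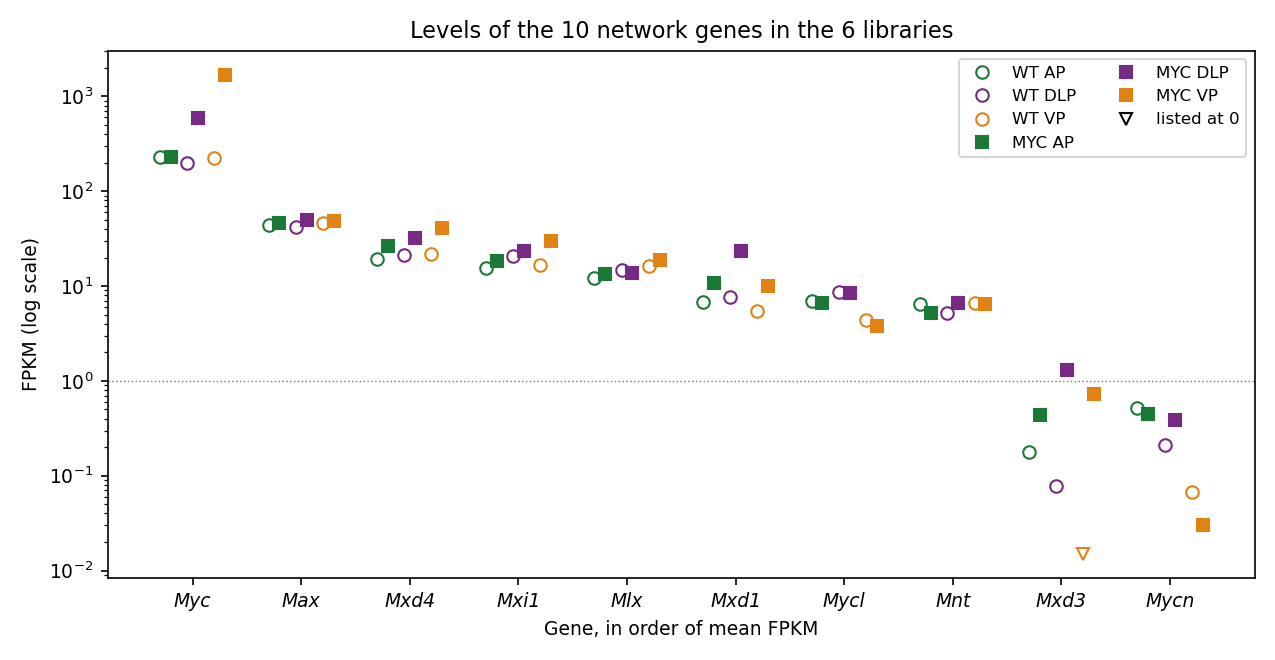
The level of each network gene in FPKM (log scale) by gene, in order of mean FPKM, with open circles for WT and filled squares for MYC, coloured by lobe, 1 library per point, and a triangle for a listed 0. Max sits between 42.2 and 49.9 FPKM throughout, whereas the Myc row climbs from 200.6 FPKM in WT DLP to 1696 FPKM in MYC VP.

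Among the antagonists, Mxd4, Mxi1 and Mxd1 were higher in MYC than in WT in all 3 lobes, except that Mxi1 in DLP changed direction under 2 of 5 alternative scalings and pseudocounts, and Mnt was not higher throughout. Mxd4, which is found mostly in differentiated tissue, was the most abundant of them. Its level was 19.3 FPKM in WT AP, 21.1 FPKM in WT DLP and 22.0 FPKM in WT VP, as against 26.2 FPKM in MYC AP, 32.2 FPKM in MYC DLP and 41.3 FPKM in MYC VP. The 3 MYC libraries all lay above the 3 WT libraries. MYC exceeded WT 1.36-fold in AP (1.27 to 1.45), 1.53-fold in DLP (1.44 to 1.61) and 1.88-fold in VP (1.79 to 1.98), which stayed below the 2-fold threshold with the values as deposited. This order of AP, DLP and VP was also that of the Myc row, except that as a ratio to Krt8 and Krt18 the log2 ratio of Mxd4 was lower in DLP (0.36) than in AP (0.61). The direction of Mxd4 held in each lobe under the 5 alternative scalings and pseudocounts.

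Mxd1, which is induced as cells of many lineages stop dividing and differentiate, differed most in DLP. It was at 6.81 FPKM in WT AP, 7.69 FPKM in WT DLP and 5.48 FPKM in WT VP, and at 10.9 FPKM in MYC AP, 23.6 FPKM in MYC DLP and 10.004 FPKM in MYC VP. MYC DLP stood apart from the other 5 libraries. MYC exceeded WT 1.60-fold in AP (1.47 to 1.73), 3.07-fold in DLP (2.90 to 3.26) and 1.83-fold in VP (1.70 to 1.97). The order of the lobes was thus not that of the Myc row, and MYC VP had 0.423 times the Mxd1 level of MYC DLP (0.400 to 0.448).

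Hematopoietic markers moved alongside Mxd1 in DLP. All 7 markers that reached the minimum, among them Ptprc, the pan-leukocyte antigen CD45, and Lyz2, the lysozyme of myeloid cells, were at least 2-fold higher in MYC DLP, where 9.85% of all genes were past 2-fold. The summed list of 8 was at 40.1 FPKM in DLP of the WT mouse and 230.5 FPKM in that of the MYC mouse, at 29.0 and 165.5 FPKM in VP and at 104.1 and 92.7 FPKM in AP, and the B cell marker Ms4a1 was listed at 0 in every WT lobe. Lyz2 in DLP was at 11.8 FPKM in WT and 131.6 FPKM in MYC, and Ptprc at 3.18 and 11.4 FPKM. In AP the list was not higher in MYC while Mxd1 was 1.60 times as high. How far these cells carried the Mxd1 reads was not tested.

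Mxi1, next to Mxd4 in mean level, differed mainly in VP. Its level was 15.6 FPKM in WT AP, 21.0 FPKM in WT DLP and 16.6 FPKM in WT VP, as against 18.2 FPKM in MYC AP, 23.5 FPKM in MYC DLP and 29.9 FPKM in MYC VP. As deposited, MYC VP was the highest library, and the MYC AP level lay within the range of the WT lobes. MYC exceeded WT 1.17-fold in AP (1.10 to 1.23), 1.12-fold in DLP (1.07 to 1.17) and 1.80-fold in VP (1.73 to 1.88). In WT, DLP had 1.34 times the Mxi1 level of AP (1.27 to 1.42), so DLP led among the WT lobes. With the values as deposited VP led among the MYC lobes, whereas as a ratio to Krt8 and Krt18 Mxi1 was lower in MYC VP than in MYC DLP (log2 ratio -0.70).

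Mxd3, the family member found in dividing cells of the S phase, was close to the limit of detection. It was at 0.179 FPKM in WT AP and 0.0775 FPKM in WT DLP and is listed at 0 in WT VP, against 0.438 FPKM in MYC AP, 1.31 FPKM in MYC DLP and 0.735 FPKM in MYC VP. These are 5, 4 and 0 estimated reads in WT and 23, 48 and 32 reads in MYC. All MYC libraries were above all WT libraries. In DLP the ratio was 17.0 with a wide counting interval of 5.95 to 62.1, and in AP it was 2.45 (0.869 to 7.87). Mxd3 (chromosome 13, 55325170 to 55329900) overlaps Prelid1, which was at 94.7 to 172.3 FPKM, and whether the counting used the strand is not stated in the sources used here.

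A list of 13 proliferation genes moved in the direction of Mxd3. Of the 12 that reached the minimum, 4 were at least 2-fold higher in MYC in AP, 10 were in DLP and 10 were in VP, where 2.65%, 9.85% and 12.8% of all genes were past 2-fold in either direction. The median log2 ratios of the list were 0.84, 2.14 and 2.13 in AP, DLP and VP. With a minimum mean of 10 FPKM only Pcna remained, with lower log2 ratios of -0.01, 0.27 and 0.78. Mki67, the antigen Ki-67 of cycling cells, was at 0.693, 0.721 and 0.484 FPKM in WT AP, DLP and VP and at 3.60, 10.4 and 12.8 FPKM in MYC. Both Mki67 and Mxd3 were thus lower in every WT library than in every MYC library. Whether their reads came from the same cells was not tested.

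Mnt, the antagonist that is present in resting and dividing cells alike, stayed within a narrow band. It was at 6.45 FPKM in WT AP, 5.24 FPKM in WT DLP and 6.67 FPKM in WT VP, and at 5.24 FPKM in MYC AP, 6.71 FPKM in MYC DLP and 6.42 FPKM in MYC VP. The genotypes overlapped fully. MYC was 0.813 times WT in AP (0.701 to 0.943), 1.28 times in DLP (1.12 to 1.47) and 0.962 times in VP (0.850 to 1.09), and the VP direction changed under 1 of 5 alternatives. Of the 4 members with the E-box shown above, Mxd4 and Max were higher in MYC in every lobe as deposited, and Mnt and Mlx were not. Among the members whose windows did not hold it, Mxd1, Mxi1 and Mxd3 were higher in every lobe as deposited, and Mycl and Mycn were not.

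**Figure D2:**
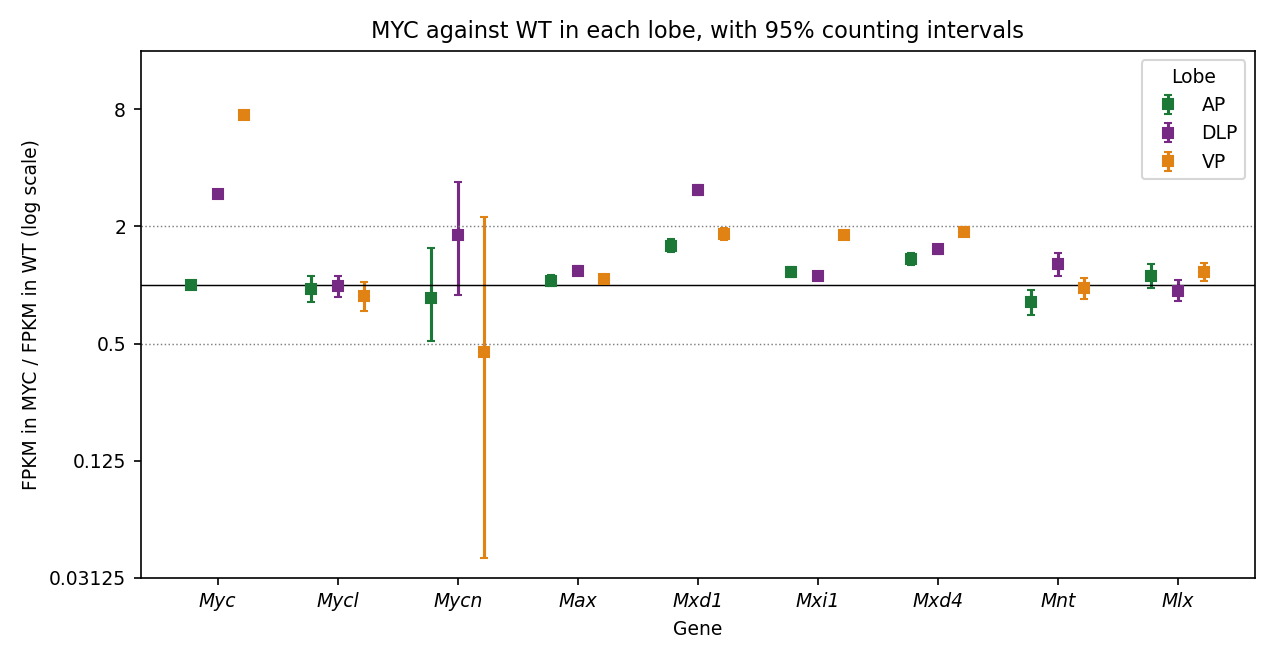
The FPKM in MYC over the FPKM in WT (log scale) by gene, in AP, DLP and VP, with 95% counting intervals as bars and dotted lines at 2-fold, for the members other than Mxd3, which is listed at 0 in WT VP. The Myc row reaches 7.49 in VP and 2.92 in DLP, Mxd1 reaches 3.07 in DLP, and the intervals of Mycn are wide because it rests on 2 to 40 reads.

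Few members differed 2-fold between the genotypes. None of the 8 members differed between MYC and WT in AP, where 2.65% of all genes tested did. In DLP 2 members did, Myc and Mxd1, beside 9.85% of all genes. In VP it was Myc alone, beside 12.8% of all genes. The median log2 ratio of the 8 members was 0.11 (AP), 0.27 (DLP) and 0.49 (VP), beside 0.13, 0.03 and 0.04 for all genes. In each lobe 6 of 8 members lay above 0, as did 66.4% (AP), 53.5% (DLP) and 53.2% (VP) of all genes. In AP the median of the members was slightly below that of all genes.

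Between the WT lobes no member differed 2-fold with the values as deposited. The background was 18.2% of genes for WT VP against WT AP, 8.92% for WT VP against WT DLP and 5.16% for WT DLP against WT AP. The closest to the threshold was Mycl in WT VP against WT DLP, with a log2 ratio of -0.83. As ratios to Krt8 and Krt18, which are themselves higher in VP, all 8 members were past 2-fold lower in WT VP than in either other WT lobe. On that scale 69.1% of all genes (against WT AP) and 80.6% (against WT DLP) were past 2-fold in either direction.

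Lobes were also compared over both mice, with limma on log2(FPKM + 1) and mouse as a block, in a two-sided test added after the data were seen. It takes the MYC and the WT mouse as the 2 replicates of a lobe, so a lobe difference that is not the same in both genotypes counts as error. No member passed an adjusted p of 0.05 in VP against AP (16.6% of all genes did), in VP against DLP (0.89%) or in DLP against AP (0.0485%). At an unadjusted limma p of 0.05, 2 members passed in VP against AP (Mycl and Mlx), 2 in VP against DLP (Mycl and Mxd1) and 0 in DLP against AP. Of all 12361 genes, 4668, 3031 and 1332 passed it in the same order, so these counts do not set the members apart. Mycl came nearest, with a mean log2 difference of -0.90 ± 0.15 (SE, n = 2 mice, limma adjusted p = 0.0685) in VP against DLP and of -0.61 ± 0.15 (limma adjusted p = 0.0604) in VP against AP, and it was lower in VP in both mice. For the Myc row, whose difference between VP and AP was -0.02 in WT and 2.87 in MYC, the mean of 1.42 had a standard error of 0.70 (limma adjusted p = 0.21).

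Between the MYC lobes, the Myc row was the only member past 2-fold in VP against AP (log2 ratio 2.87), where 25.1% of genes were. Myc (1.53) and Mxd1 (-1.16) were past it in VP against DLP, in opposite directions, beside 17.6% of genes. In DLP against AP it was again Myc (1.34) and Mxd1 (1.05), beside 8.03% of genes. As ratios to Krt8 and Krt18, the Myc row was past 2-fold in neither of these 2 comparisons with MYC DLP.

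Summed over Mxd1, Mxi1, Mxd3, Mxd4 and Mnt, the antagonists were higher in MYC in each lobe. The sum was 48.4 FPKM in WT AP, 55.1 FPKM in WT DLP and 50.7 FPKM in WT VP, as against 61.0 FPKM in MYC AP, 87.3 FPKM in MYC DLP and 88.4 FPKM in MYC VP. That is 1.26 times the WT sum in AP, 1.58 times in DLP and 1.74 times in VP. As deposited, the sums of MYC DLP and MYC VP were alike (log2 ratio -1.05 of VP to DLP as ratios to Krt8 and Krt18) and their make-up was not. Mxd1 made up 27.1% of the sum in MYC DLP and 11.3% in MYC VP, against 13.9% and 10.8% in the WT lobes. Mxd4 made up 36.9% in MYC DLP and 46.7% in MYC VP.

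Set against this sum, the Myc row was 4.75 times the antagonists in WT AP (4.58 to 4.93), 3.64 times in WT DLP (3.54 to 3.73) and 4.47 times in WT VP (4.35 to 4.58). In MYC it was 3.78 times in AP (3.69 to 3.88), 6.71 times in DLP (6.56 to 6.86) and 19.2 times in VP (18.8 to 19.5). The ratio was lower in MYC than in WT in AP, at 0.796 times, and higher in DLP, at 1.84 times, and in VP, at 4.30 times. The antagonist sum was 1.09 to 1.31 times Max in the WT lobes and 1.30, 1.75 and 1.80 times Max in MYC AP, DLP and VP. These are ratios of transcripts, and the paired proteins were not measured here.

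**Figure D3:**
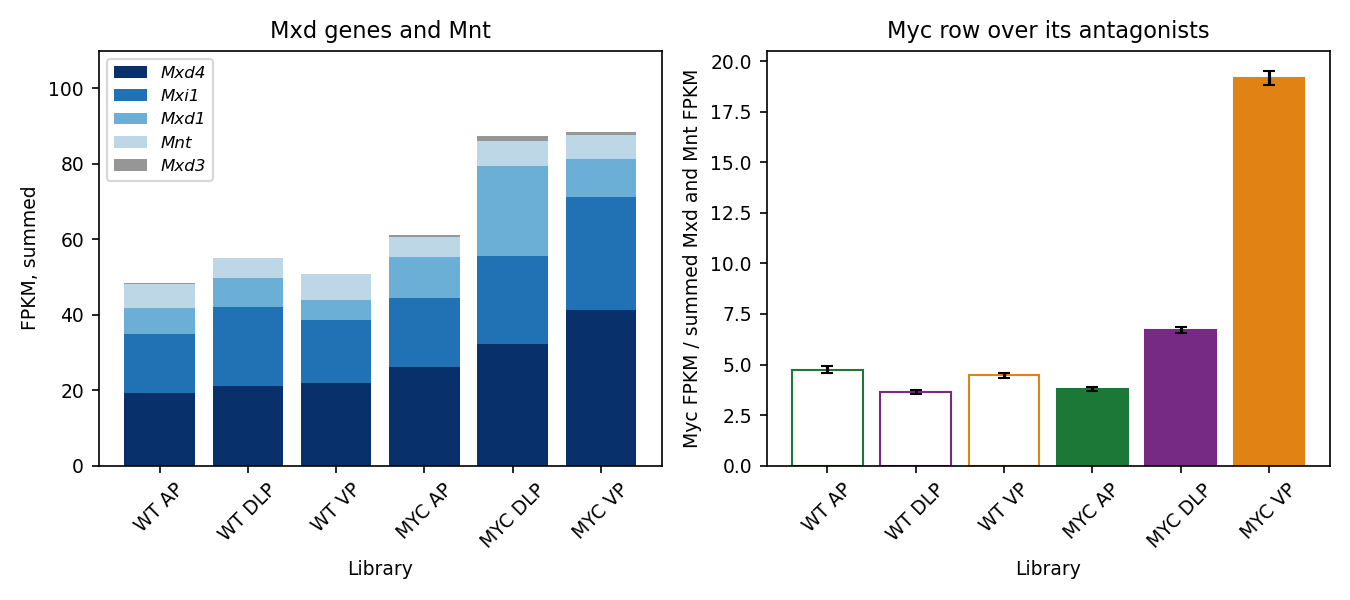
Left, the FPKM of Mxd4, Mxi1, Mxd1, Mnt and Mxd3 stacked for each of the 6 libraries. Right, the FPKM of the Myc row over that sum with 95% counting intervals as error bars, which is 3.64 in DLP and 4.47 in VP of the WT mouse and 6.71 in DLP and 19.2 in VP of the MYC mouse.

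Mlx, the partner that links Mxd proteins to the sugar-sensing branch, was at 12.0 FPKM in WT AP, 14.9 FPKM in WT DLP and 16.3 FPKM in WT VP, and at 13.4, 13.9 and 19.0 FPKM in the MYC lobes. With the values as deposited, VP was the highest lobe in each mouse, whereas as a ratio to Krt8 and Krt18 Mlx was lower in WT VP than in WT AP (log2 ratio -1.08) and in MYC VP than in MYC AP (-0.96). MYC was 1.11 times WT in AP (0.967 to 1.29), 0.934 times in DLP (0.826 to 1.06) and 1.17 times in VP (1.05 to 1.30), and the VP direction changed under 2 of 5 alternatives. The end of Mlx overlaps Psmc3ip, which was at 7.92 to 10.6 FPKM. Its partner Mlxip was at 10.7, 9.40 and 9.49 FPKM in WT and 11.4, 10.2 and 8.71 FPKM in MYC. Mlxipl, known for its role in liver and fat, was at 1.34 FPKM in WT AP and 0.341 FPKM in MYC VP and had a mean below the minimum. Mga was at 8.17, 7.27 and 7.13 FPKM in WT and 9.03, 5.94 and 6.14 FPKM in MYC.

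The targets of Mlx pairs did not move together. Txnip, which restrains glucose uptake, was at 69.6 FPKM in WT AP, 131.5 FPKM in WT DLP and 97.9 FPKM in WT VP, and at 157.7, 112.7 and 72.1 FPKM in the MYC lobes, so it was higher in MYC in AP and lower in DLP and VP. Arrdc4, its relative, was at 12.1, 14.3 and 16.6 FPKM in WT and 17.5, 21.2 and 27.6 FPKM in MYC, higher in every lobe. Klf10, a further target, had log2 ratios of 0.07, 0.54 and 0.11. Pklr, the liver pyruvate kinase, was at most at 0.0234 FPKM. Of the 3 targets tested, Txnip in AP alone was past 2-fold, beside 2.65% (AP), 9.85% (DLP) and 12.8% (VP) of all genes.

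The Mxd proteins and Mnt act through the Sin3 corepressor. None of 16 Sin3 complex genes differed 2-fold in any lobe, where 2.65% (AP), 9.85% (DLP) and 12.8% (VP) of all genes did, so few calls would fall in a list of this size at the share of all genes. Their median log2 ratios were 0.28 (AP), 0.04 (DLP) and -0.01 (VP), and those of DLP and VP changed sign under some alternatives. Sin3a was at 10.7, 8.44 and 10.5 FPKM in WT AP, DLP and VP and 12.9, 10.1 and 11.8 FPKM in MYC. Sin3b was at 28.8, 33.6 and 36.7 FPKM in WT and 27.6, 32.3 and 38.9 FPKM in MYC. The highest and lowest log2 ratios of the list in VP were those of Sap30 (3.40 FPKM in WT and 7.02 FPKM in MYC) and Sap18 (5.08 and 2.86 FPKM), both subunits of the complex. Sap18 has a close copy, Sap18b, so its share of reads is uncertain.

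Of 14 genes of Myc coactivators, none was past 2-fold in AP or DLP and 2 were in VP, beside 2.65% (AP), 9.85% (DLP) and 12.8% (VP) of all genes. The median log2 ratio in VP was 0.23 as deposited and lay between -0.02 and 0.43 under the alternatives, and the medians of AP and DLP also changed sign, so no direction is given for the list. Kat2a, the histone acetyltransferase GCN5, was at 10.8 FPKM in WT AP, 11.04 FPKM in WT DLP and 12.1 FPKM in WT VP, and at 11.7 FPKM in MYC AP, 21.3 FPKM in MYC DLP and 33.0 FPKM in MYC VP. As deposited, its levels were in the order of the Myc row in the MYC lobes, whereas as a ratio to Krt8 and Krt18 Kat2a was lower in MYC VP than in MYC DLP (log2 ratio -0.43). Ruvbl2, a helicase of chromatin remodelers, differed by a log2 ratio of 1.01 in VP, from 6.997 to 15.1 FPKM. Kat5, the acetyltransferase TIP60, went the other way, from 24.8 FPKM in WT VP to 18.6 FPKM in MYC VP (log2 ratio -0.40).

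Genes that control the stability of the Myc protein split in their direction. Of 19, none was past 2-fold in AP, 3 were higher in DLP and 4 were higher in VP, beside 2.65%, 9.85% and 12.8% of all genes past it in either direction. The median log2 ratio was 0.13, 0.02 and -0.02, and each changed sign under some alternatives. The 4 in VP were Skp2, a ubiquitin ligase subunit, Cip2a, an inhibitor of the phosphatase PP2A, and the mitotic kinases Aurka and Plk1. All 4 were below 1 FPKM in each WT library, and they are also known as genes of dividing cells. Aurka was at 0.274 FPKM in VP of the WT mouse and 5.05 FPKM in that of the MYC mouse, and Skp2 at 0.322 and 3.24 FPKM. Fbxw7, the ubiquitin ligase subunit that recognises phosphorylated Myc, was at 4.95, 4.89 and 6.05 FPKM in WT and 5.49, 5.26 and 4.19 FPKM in MYC. Btrc, another such subunit, in VP was at 4.22 FPKM in WT and 2.28 FPKM in MYC.

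Among 28 genes commonly described as induced by Myc, the lobes differed. None was past 2-fold in AP, 1 was higher in DLP and 8 were higher in VP, where 2.65%, 9.85% and 12.8% of all genes were past it in either direction. The count in AP and DLP was thus not above the share of all genes. The median log2 ratios were -0.22, 0.17 and 0.75, of which the DLP value changed sign as a ratio to Krt8 and Krt18. In AP 21 of the 28 lay below 0, as did 33.3% of all genes, and in VP 24 lay above 0, as did 53.2% of all genes. Cdk4, the cyclin D kinase, was at 28.6, 35.2 and 29.2 FPKM in WT AP, DLP and VP and at 38.6, 79.2 and 104.9 FPKM in MYC. Npm1, a nucleolar chaperone of ribosome assembly, was at 277.0 FPKM in VP of the WT mouse and 904.3 FPKM in that of the MYC mouse. In VP 4 of the list lay below 0, and Ldha, the lactate dehydrogenase subunit, was the lowest, with 109.7 FPKM in WT and 85.9 FPKM in MYC. Of the 23 genes of this list with a promoter window, 9 held CACGTG (39.1%). Over the 9561 genes of at least 1 FPKM with a window the share was 12.0%. In the other lists it was 0 of 6 genes repressed by Myc, 1 of 12 Sin3 genes, 2 of 13 coactivator genes and 2 of 16 turnover genes. It was 3 of 16 immediate early genes, 1 of 11 proliferation genes and 1 of 3 targets of Mlx pairs.

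Genes described as repressed by Myc also split. Of 10, 1 was higher in AP, 1 was higher and 1 lower in DLP, and 1 was higher and 3 lower in VP, beside 2.65%, 9.85% and 12.8% of all genes in either direction. The median log2 ratios were -0.10, 0.07 and -0.59, and those of AP and DLP changed sign under some alternatives. The 3 lower in VP were Ndrg1, Ndrg2 and Gas1. In VP the level of Gas1, a growth arrest gene of fibroblasts, was 6.50 FPKM in WT and 1.11 FPKM in MYC. Summed fibroblast markers were lower there too, at 648.1 FPKM in WT and 194.9 FPKM in MYC over 6 genes. Most of that sum was Dcn (582.7 and 156.1 FPKM), and Col1a1 alone was not lower (6.18 and 7.20 FPKM). In DLP the sum was 1284 FPKM in WT and 698.5 FPKM in MYC, and the log2 ratio of Gas1 was -1.64. In AP the sum was higher in MYC (1201 and 1365 FPKM), whereas the log2 ratio of Gas1 was -0.26. Ndrg2 was at 33.6 FPKM in VP of the WT mouse and 9.08 FPKM in that of the MYC mouse. Cdkn2b, the cyclin-dependent kinase inhibitor p15, was the one that was higher in VP, at 5.04 FPKM in MYC (log2 ratio 1.01). Clu, a secreted chaperone, was the one that was higher in AP and in DLP, where it was at 456.0 and 1636 FPKM. How far the fibroblast share carried the value of Gas1 was not tested.

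**Figure D4:**
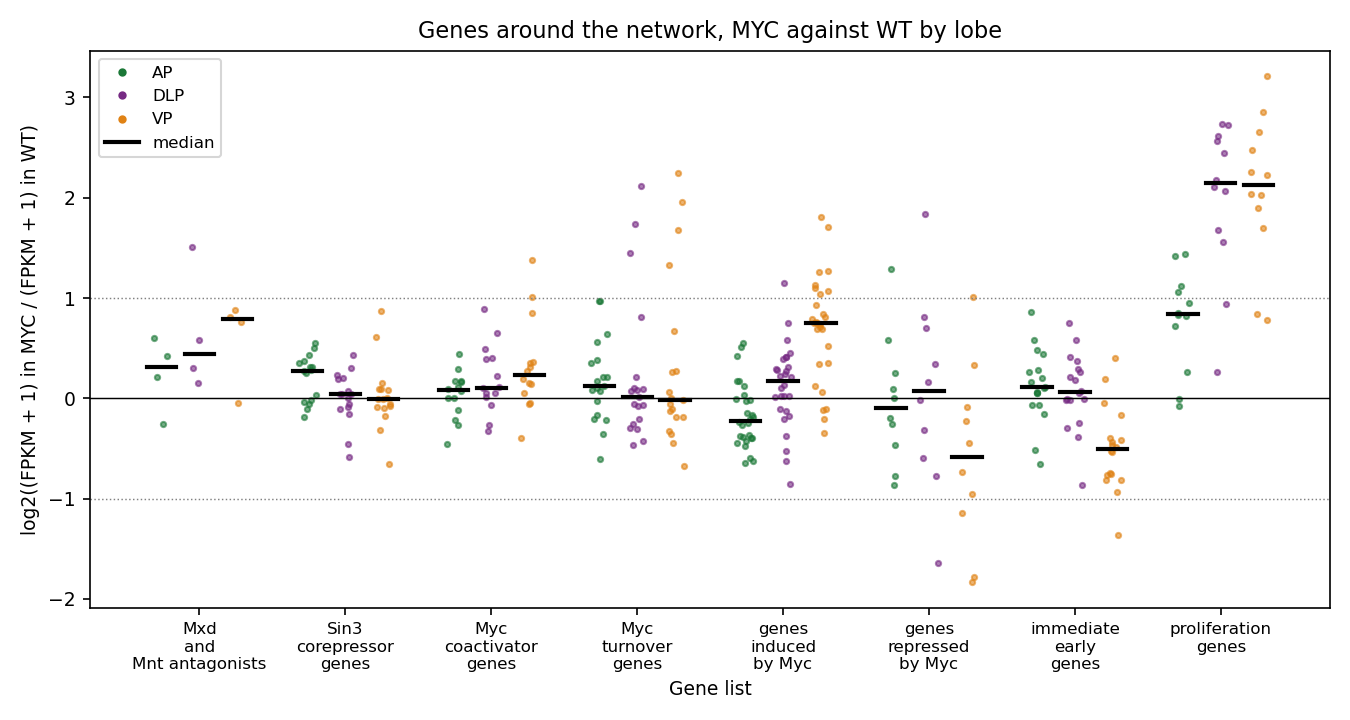
The log2 ratio of MYC to WT for each gene of 8 lists, in AP, DLP and VP, 1 point per gene of at least 1 FPKM, with black bars for medians and dotted lines at 2-fold. Proliferation genes have medians of 2.14 in DLP and 2.13 in VP, genes induced by Myc run from -0.22 in AP to 0.75 in VP, and Sin3 genes stay between the dotted lines.

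The promoter of the transgene comes from probasin, so Pbsn, the gene of this secreted protein, was set beside the Myc row. Pbsn was at 3597 FPKM in WT AP, 14037 FPKM in WT DLP and 2055 FPKM in WT VP, and at 3084 FPKM in MYC AP, 267.3 FPKM in MYC DLP and 1.90 FPKM in MYC VP. In the MYC lobes the order of Pbsn was the reverse of that of the Myc row. The endogenous gene was thus lowest in the 2 libraries with the highest Myc row, and the log2 ratio of Pbsn was -0.22 (AP), -5.71 (DLP) and -9.47 (VP). Krt8 in VP was at 1292 FPKM in WT and 1101 FPKM in MYC, so the luminal keratin differed far less than Pbsn did.

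**Figure D5:**
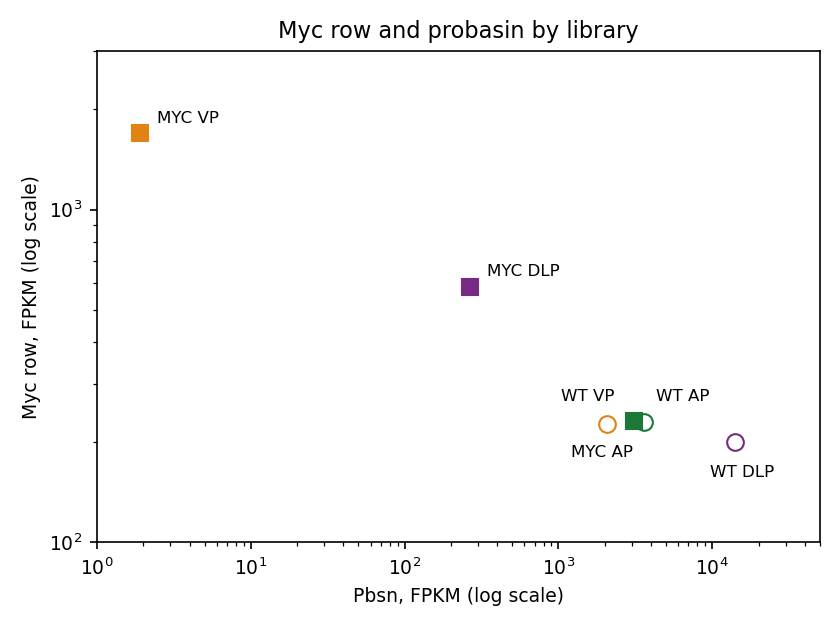
The Myc row against Pbsn in FPKM (both log scales) for the 6 libraries, with open circles for WT and filled squares for MYC. WT libraries and MYC AP cluster at 200.6 to 230.9 FPKM of Myc and at least 2055 FPKM of Pbsn, whereas MYC VP lies at 1696 and 1.90 FPKM.

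Of the 5 genes whose log2 level most resembled the Myc row across the 6 libraries, among the 5360 genes that averaged 10 FPKM or more, 4 are given here, Abhd11, Bex4, Kat2a and Timm23. Pearson's r was 0.997, 0.997, 0.992 and 0.991 over 6 libraries, which share 2 mice and 3 lobes, so r is given as a description. No other member of the network was among the 5. Bex4 was at 22.1, 20.3 and 20.4 FPKM in WT AP, DLP and VP and at 23.1, 38.0 and 81.0 FPKM in MYC. Abhd11 was at 17.3, 17.2 and 18.7 FPKM in WT and 17.9, 26.3 and 42.3 FPKM in MYC. Both were flat in the WT lobes and MYC AP and highest in MYC VP, as the Myc row was. Timm23, which encodes a channel subunit of the inner mitochondrial membrane, was at 23.7, 22.8 and 22.4 FPKM in WT and 23.6, 27.8 and 32.9 FPKM in MYC.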

How the data were processed

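RNA from 6 prostate lobe suspensions was sequenced from poly(A)-selected, stranded libraries as single-end reads. The authors mapped reads with STAR and quantified genes with Cufflinks in VIPER, and deposited FPKM, which are fragments per kilobase scaled to depth. The submitters' processing notes name mm10, and the annotation is not given in the sources used here. The planned analysis allowed for read counts, but the values are not whole numbers, so FPKM were used and no count model was run. With 1 library per lobe and genotype, no p-value was computed for MYC against WT. Lobes were tested over both mice with limma 3.58.1 in R 4.3.3 (additive fit of mouse and lobe, trended prior, 2 residual degrees of freedom, Benjamini-Hochberg adjustment over 12361 genes). This two-sided test was added after the data were seen and was tested on simulated data. Lobes pair within a mouse, since the study describes 1 mouse of each genotype and the sample titles share a prefix within a genotype.

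Here, log2(FPKM + 1) ratios were taken for the 12361 genes averaging 1 FPKM or more and compared with a 2-fold threshold. Depths (25.5 to 50.2 M reads) came from steps in FPKM below 0.3 of single-exon genes, with 200 bases subtracted from lengths of over 600 bases. Mean transcript lengths from GENCODE then gave estimated reads and exact binomial 95% intervals of the ratios. Because Cufflinks counts are estimates, these intervals are approximate. The computations were tested on simulated data.

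Members and gene lists were chosen with earlier results of these data known. Named genes were the members, other partners of Max and Mlx, Sin3a, Sin3b, Txnip, Arrdc4, Pbsn, Krt8, Krt18, the largest rise and fall in VP within each list, and the 5 genes most like the Myc row. Some genes that this rule names are left out. Further genes (among them Npm1, Ruvbl2, Skp2, Cip2a, Plk1, Fbxw7, Ndrg1, Ndrg2, Clu, Klf10, Pklr, Ptprc, Lyz2 and Ms4a1) were named after their values were seen. Alternatives were 4 other scalings (size factors, equal sums of FPKM with and without the 20 highest genes, and ratios to Krt8 and Krt18), a pseudocount of 0.1, no filter, a minimum mean of 10 FPKM and a 1.5-fold threshold. Coordinates and promoters are those of RefSeq on GRCm38.p6. The scripts used scipy 1.17.1, pandas 2.3.3 and numpy 2.4.6 on Python 3.11.15, and figures matplotlib 3.10.9.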

Additional observations from a re-analysis of the deposited data

Results flagged for a closer look

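The log2 ratio of MYC to WT was compared between lobes for the 185 genes that are members, belong to a list or are named above, and for the medians of 16 lists with at least 3 genes tested. A case was listed where the ratio had opposite signs in different lobes with at least 0.2 in size in both, for single genes also beyond counting error. This held for 47 genes, 6 of them named above, and for 4 lists. None of these differences was tested, since each lobe and genotype has 1 library.

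Mnt, the only member among them, had a log2 ratio of 0.31 in DLP and -0.25 in AP, a difference of 0.56. Txnip went from 1.17 in AP to -0.44 in VP, 1.61 apart. Ndrg2 went from 0.58 in AP to -1.78 in VP, 2.35 apart, and Jun from 0.29 in AP to -0.43 in VP, 0.72 apart. These 4 genes kept opposite signs under the 5 alternative scalings and pseudocounts, while Krt8 (0.25 in DLP and -0.23 in VP, 0.48 apart) and Krt18 (0.22 and -0.29, 0.51 apart) did so under 4 of 5.

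The median of the 28 genes described as induced by Myc was 0.75 in VP and -0.22 in AP, 0.98 apart. That of basal markers was 0.48 in DLP and -0.59 in VP, 1.07 apart. That of smooth muscle markers was 0.75 in AP and -1.18 in DLP, 1.93 apart, and that of fibroblast markers was 0.94 in AP and -1.09 in VP, 2.02 apart. These 4 lists kept opposite signs under the same 5 alternatives.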

How the results depend on the processing

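Of 72 counts of members under an alternative, 60 stayed within 1.5 times the count given above and 12 did not, and no member past 2-fold as deposited changed direction. At 1.5-fold, the counts became 1 in MYC against WT AP (Mxd1), 4 in VP (Myc, Mxd1, Mxi1 and Mxd4), 1 in WT VP against WT DLP (Mycl) and 4 in MYC VP against MYC AP. Of all genes, 10.7%, 31.7%, 24.9% and 46.1% were past 1.5-fold in these comparisons. As ratios to Krt8 and Krt18, which are higher in VP, the counts became 3 in MYC against WT VP (Myc, Mxi1 and Mxd4), 8 in WT VP against WT AP, 8 in WT VP against WT DLP (all 8 lower in VP, also those such as Mlx and Mxd4 that were higher there as deposited), 5 in MYC VP against MYC AP and 0 in MYC DLP against MYC AP. Of all genes, 10.7%, 69.1%, 80.6%, 67.5% and 10.6% were past 2-fold on that scale in the same order. On that scale MYC VP against MYC DLP had 3 (Mycl, Max and Mxd1, all lower in VP), beside 47.2% of all genes, and Myc was no longer among them. Size factors left 1 in MYC VP against MYC DLP (beside 16.4% of all genes). Equal sums of FPKM, with or without the 20 highest genes, left 1 in MYC DLP against MYC AP (beside 7.93% and 7.81%), in each case Myc without Mxd1. In MYC against WT DLP the count was 2 or 3 throughout, with Myc and Mxd1 each time, beside 5.67% (no filter) to 22.9% (1.5-fold) of all genes. Across the 4 other scalings and the other pseudocount the log2 ratio of the Myc row was 1.31 to 1.55 in DLP and 2.63 to 3.16 in VP, that of Mxd1 in DLP 1.31 to 1.61 and that of Mxd4 in VP 0.62 to 1.10. In AP the Myc row was at -0.15 to 0.19, so no direction is given for it.

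Of 186 alternative values of list medians in MYC against WT, 109 stayed within the median counting interval of the genes in the list and 77 did not. Of the 27 medians, 10 kept their sign under each alternative run and 17 changed it under at least 1. Those of the genes induced by Myc (0.48 to 0.99), the genes repressed by Myc (-0.85 to -0.32) and the immediate early genes (-0.78 to -0.24) in VP kept theirs.

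Lobes pair within a mouse. The fit of lobe with mouse as the replicate block, chosen after seeing the data, called 0 of 8 members in each comparison of lobes with limma. So did the limma fit without the block, where 2 (VP against AP), 1 (VP against DLP) and 0 (DLP against AP) members had an unadjusted p under 0.05. The number of all genes under that unadjusted p was not taken for the fit without the block. Over all genes, VP against AP gave 2056 calls with the block and 980 without it, and VP against DLP gave 110 and 75. MYC against WT could not be paired, since each genotype has 1 mouse. Leaving out a library removes its whole group. Depth limits Mycn and Mxd3, which rest on at most 48 reads.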

Other observations

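Several members differed between the lobes of the WT mouse within the 2-fold threshold, in ways the counts above do not show. With the values as deposited, Mlx was 1.35 times as high in WT VP as in WT AP (95% counting interval 1.18 to 1.56), although its log2 ratio was -1.08 as a ratio to Krt8 and Krt18, and Mxd1 was 0.713 times as high in WT VP as in WT DLP (0.661 to 0.768). Of the 8 members tested, the counting interval of the ratio left out 1 for 5 in WT VP against WT AP, 6 in WT VP against WT DLP and 7 in WT DLP against WT AP. In MYC against WT it left out 1 for 4 in AP, 6 in DLP and 6 in VP. Such intervals hold no variation between mice. The share of all genes whose interval left out 1 was not taken, so these counts do not set the members apart from other genes.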
